A study of Homo sapiens with 2 samples.

Results

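The miRNAs described here are 10 mature miRNAs encoded inside the human HOX gene clusters, namely both arms of miR-10a, miR-10b, miR-196a, miR-196b and miR-615. They were chosen by name, and all 10 were found among the 2549 miRNAs of the array. The RNA came from exosomes, the small vesicles that cells release, of FaDu, a line grown from a human squamous cell carcinoma of the hypopharynx. One group was transfected with the NC control plasmid (oe-NC) and the other with the plasmid that overexpresses HOTTIP (oe-HOTTIP), a long noncoding RNA transcribed from the end of the HOXA cluster. The sample labels name a lentivirus as the carrier, whereas the methods describe pcDNA3.1 plasmids and Lipofectamine. Each group had 1 one-colour Agilent miRNA array, so no value has a replicate check and no p-value was computed. A miRNA array does not measure HOTTIP, and its overexpression could not be checked here.

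The labels of each array contradict themselves, since the description gives the opposite group to the title and the treatment. Groups are those of the titles, and each direction below is reversed if the titles are mistaken. In the table of normalized values, the column named for oe-NC followed the scanner values of the oe-HOTTIP array with a Spearman's rho of 1.00 across 388 miRNAs, and the column named for oe-HOTTIP those of the oe-NC array with 1.00 across 315 miRNAs. Brightness was higher overall for oe-HOTTIP, by a median of 1.60-fold over the 261 miRNAs detected on both arrays, and 390 miRNAs were detected there against 328. No spot was saturated on either array. Of 8 miRNAs typical of squamous and other epithelial cells, 5 were detected on the oe-NC array and 6 on the oe-HOTTIP array. Their summed intensity was 530.4 and 639.9 in scanner units, and miR-203a-3p and miR-429 were detected on neither array. After scaling to a common 90th percentile, the 5 measured on both arrays had log2 differences from -0.65 to 0.17 (median -0.62), and miR-200a-3p, detected on the oe-HOTTIP array alone, had a bound of 1.15. Of 7 blood and serum miRNAs, the same 5 were detected on both arrays, with summed intensities of 2287 and 2626. Most of that sum was miR-451a, known from red blood cells, with 2233 and 2552. The scaled log2 differences of the 5 ran from -1.75 for miR-486-5p, past 2-fold lower on the oe-HOTTIP array, to 0.69 for miR-223-3p, with a median of -0.33, and miR-142-3p and miR-142-5p were detected on neither array. The part of serum or blood RNA in the values below was not tested.

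HOX genes are transcription factor genes that lie in a row in their clusters and give the body axis its regional identity. The miRNAs between them are transcribed along with the surrounding HOX genes, and several HOX mRNAs are known targets of miR-10 and miR-196. A miRNA acts through its seed, the bases near its 5′ end that pair with target mRNAs, so miRNAs with the same seed share many predicted targets. In RefSeq (GRCh38.p14) the miR-10a gene lies between HOXB4 and HOXB5, within the span of HOXB3, and the miR-10b gene between HOXD8 and HOXD4. miR-196a has 2 gene copies, between HOXB9 and HOXB13 and between HOXC10 and HOXC9. The miR-196b gene lies between HOXA9 and HOXA10, with 3 HOX genes (HOXA10, HOXA11 and HOXA13) between it and HOTTIP. The miR-615 gene lies within the spans of HOXC4 and HOXC5.

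RefSeq sequences were matched for 9 of the 10 miRNAs, and miR-10b-5p was not among them. The mature arms on which the results turn are shown 5′ to 3′ with the seed (bases 2 to 8) in capitals. miR-615-3p is added as the main arm with the fewest positive spots, and miR-100-5p and miR-99a-5p as relatives of miR-10 encoded outside the HOX clusters.
hsa-miR-10a-5p: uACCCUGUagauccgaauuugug
hsa-miR-100-5p: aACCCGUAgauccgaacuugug
hsa-miR-99a-5p: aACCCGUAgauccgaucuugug
hsa-miR-196a-5p: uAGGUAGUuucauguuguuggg
hsa-miR-196b-5p: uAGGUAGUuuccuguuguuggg
hsa-miR-615-3p: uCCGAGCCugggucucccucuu
miR-10a-5p is encoded at chr17:48579904-48579926 on the minus strand and miR-196b-5p at chr7:27169528-27169549 on the minus strand. miR-196a-5p comes from chr12:53991762-53991783 on the plus strand and from chr17:48632532-48632553 on the minus strand with the same sequence. miR-615-3p lies at chr12:54034010-54034031 on the plus strand. miR-196a-5p and miR-196b-5p share the seed AGGUAGU, which no other of the 2351 distinct mature sequences in the RefSeq table used holds at that place. They differ by the single substitution A12C, with positions counted from 1 at the 5′ end of miR-196a-5p. miR-10a-5p and miR-100-5p have the stretch GUAGAUCCGAA in common, outside the seed of miR-10a-5p for all but its first 2 bases. How far a probe for one such miRNA also binds its near-copy cannot be read from the arrays, and values of near-identical pairs are uncertain to that extent.

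The HOX-locus miRNAs were dim on both arrays. By the detection call of the scanner software, 0 of the 10 were detected on the oe-NC array, where 12.9% of all 2549 miRNAs were. On the oe-HOTTIP array 3 of the 10 were detected (miR-10a-5p, miR-10b-5p and miR-196b-5p), where 15.3% of all miRNAs were. These 3 had a call from that array alone, as did 5.06% of all miRNAs, and no member had one from the oe-NC array alone, as did 2.63%. The call is near its limit, since the summed signal of each of the 3 was between 3.82 and 4.49 times its error, against a lowest ratio of 3.0 among all miRNAs detected on that array. It held for none of them under the other rules tried on the scanner values. With outlier spots left out, no member had over 50% of its spots well above background, and no member's mean exceeded that of the negative control spots by 2 SD on either array. The share of all miRNAs that pass these stricter rules was not counted.

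Each of these miRNA genes gives a main arm, which usually enters the silencing complex, and a lesser arm. The main arms are the 5p arms of miR-10a, miR-10b, miR-196a and miR-196b and the 3p arm of miR-615. The scanner software marked 57 of the 98 spots of the 5 main arms as positive and significant on the oe-NC array (58.2%) and 67 of 96 on the oe-HOTTIP array (69.8%). For the 5 lesser arms the counts were 7 of 96 (7.29%) and 11 of 97 (11.3%). Over the spots of all miRNAs the shares were 24.3% and 27.3%. The marked spots were uneven within both classes. Of the main arms, miR-615-3p had 3 of 20 and 2 of 20, and of the lesser arms, miR-10b-3p alone had 6 of 20 and 9 of 19. Spots marked as well above background, a stricter flag, numbered 0 and 5 for the main arms, and 0 on both arrays for the lesser ones.

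The 4 main arms of miR-10 and miR-196 had means from 2.62 to 3.99 on the oe-NC array and from 5.19 to 7.81 on the oe-HOTTIP array, in background-subtracted scanner units before any scaling. The 95th percentiles of the 2092 miRNAs detected on neither array, which were chosen by that lack of a call, were 2.24 and 2.76. The negative control spots averaged 3.87 ± 2.37 (SD over 976 spots) on the oe-NC array, where miR-196b-5p alone was above the mean, and 3.45 ± 2.21 (SD over 975 spots) on the oe-HOTTIP array, where all 4 were. These 4 arms are set together after their values were seen. That they stand above the other members in the figures follows from this choice and was not tested.

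**Figure D1:**
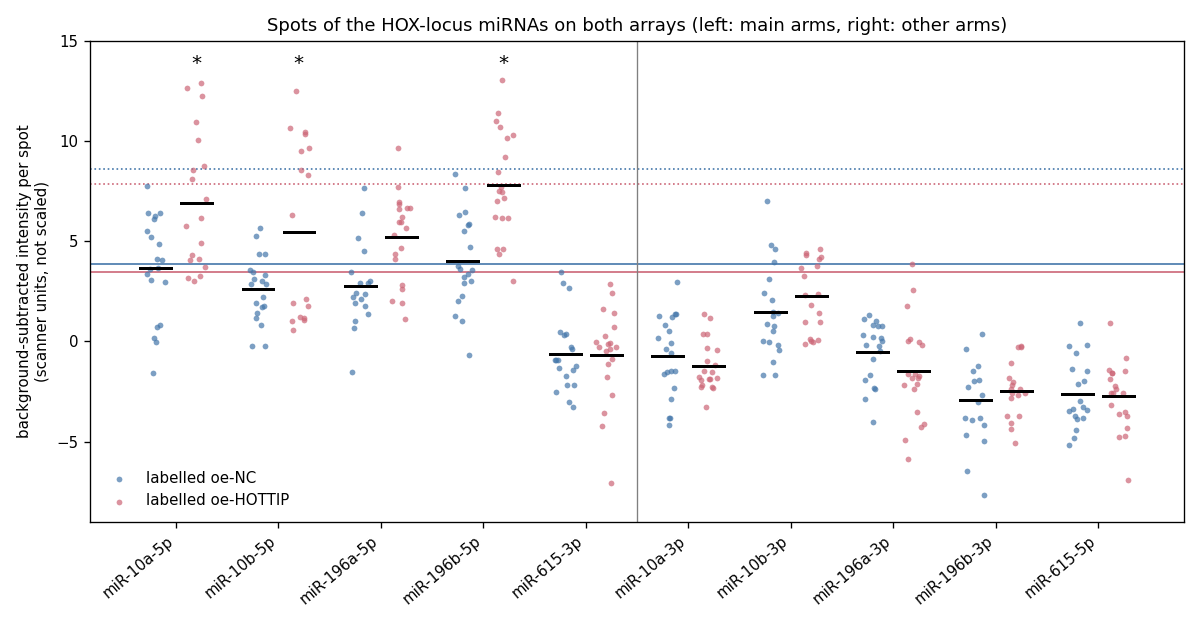
Background-subtracted intensity of every spot (points) of the 10 HOX-locus miRNAs in scanner units before scaling, with spots marked as outliers left out; black bars are the means, solid lines the mean of the negative control spots of each array, dotted lines that mean plus 2 SD, and an asterisk a miRNA called detected. The 5p arms of miR-10 and miR-196 sit between 5.19 and 7.81 on the oe-HOTTIP array and between 2.62 and 3.99 on the oe-NC array, while all means of the other 6 members are under 2.3.

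miR-196b-5p, encoded in the same cluster as HOTTIP, had a mean intensity of 3.99 ± 2.31 (SD over 20 spots) on the oe-NC array and of 7.81 ± 2.76 (SD over 20 spots) on the oe-HOTTIP array. Its spots ran from -0.68 over a median of 3.59 to 8.34 on the first array, and from 3.04 over 7.49 to 13.04 on the second, so the spots of both arrays overlapped. Both of its probes were brighter on the oe-HOTTIP array, with 3.47 and 7.70 for one and 4.52 and 7.92 for the other. The unscaled ratio was 1.96-fold. For scaling, the 90th percentile of the 261 miRNAs called on both arrays (279.9 and 439.4) served as divisor, which takes out a factor of 1.57. Where a miRNA had a call from a single array, the scaled fold is a lower bound, set against the other array's lowest signal with a call, or against its own signal there where that is higher. For miR-196b-5p the bound was 1.25-fold higher on the oe-HOTTIP array, a log2 value of 0.32 with a spread of 0.98 over spots. Its own signal set the bound, so it equals the ratio of the scaled signals.

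miR-10a-5p, whose gene lies in the HOXB cluster, was higher on the oe-HOTTIP array by both probes before scaling. Its mean was 3.68 ± 1.92 (SD over 20 spots) on the oe-NC array and 6.89 ± 1.91 (SD over 19 spots) on the oe-HOTTIP array. Its spots lay between -1.59 and 7.73, with a median of 3.88, on the first array and between 3.0 and 12.9, with a median of 6.15, on the second. The brighter probe read 5.36 ± 1.47 (SD over 10 spots) and 9.70 ± 2.45 (SD over 10 spots), and the dimmer one 1.99 ± 2.29 (SD over 10 spots) and 4.07 ± 0.99 (SD over 9 spots). The summed intensity that the software gives the miRNA, 1.37, is that of the brighter probe alone. Before scaling the ratio was 1.87-fold. After scaling the bound was 1.19-fold higher, a log2 value of 0.26 with a spread of 0.85.

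miR-10b-5p, encoded in the HOXD cluster and known for its part in the spread of several carcinomas, had probes that disagreed in direction already before scaling. Its mean was 2.62 ± 1.47 (SD over 20 spots) on the oe-NC array and 5.47 ± 1.32 (SD over 17 spots, pooled within probes) on the oe-HOTTIP array. One probe read 3.36 ± 1.45 (SD over 10 spots) for oe-NC and 9.58 ± 1.74 (SD over 9 spots) for oe-HOTTIP. Its spots on the 2 arrays were apart only before scaling and with outlier spots left out, with a highest value of 5.64 against a lowest of 6.32. All 3 spots of miR-10b-5p left out as outliers on the oe-HOTTIP array read below that 5.64. The step from 5.64 to 6.32 is also smaller than the scaling factor of 1.57, so after scaling the spots of this probe overlap. The other probe read 1.88 for oe-NC, where its 10 spots lay between -0.23 and 4.37, and 1.37 ± 0.52 (SD over 8 spots) for oe-HOTTIP. After scaling the log2 differences of the 2 probes were 0.86 and -1.11. The bound for the miRNA, 1.33-fold higher with a log2 value of 0.41 and a spread of 0.88, rests on probes that point in opposite directions.

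miR-196a-5p, made from the HOXB and the HOXC cluster, had no detection call, and so no fold is given. Its mean was 2.79 ± 1.84 (SD over 18 spots) on the oe-NC array and 5.19 ± 2.17 (SD over 20 spots) on the oe-HOTTIP array. Spots ran from -1.53 to 7.66 and from 1.14 to 9.67, with medians of 2.37 and 5.82, so they overlapped over most of their range. Its probes differed in sign after scaling, with log2 differences of 0.81 and -0.076.

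**Figure D2:**
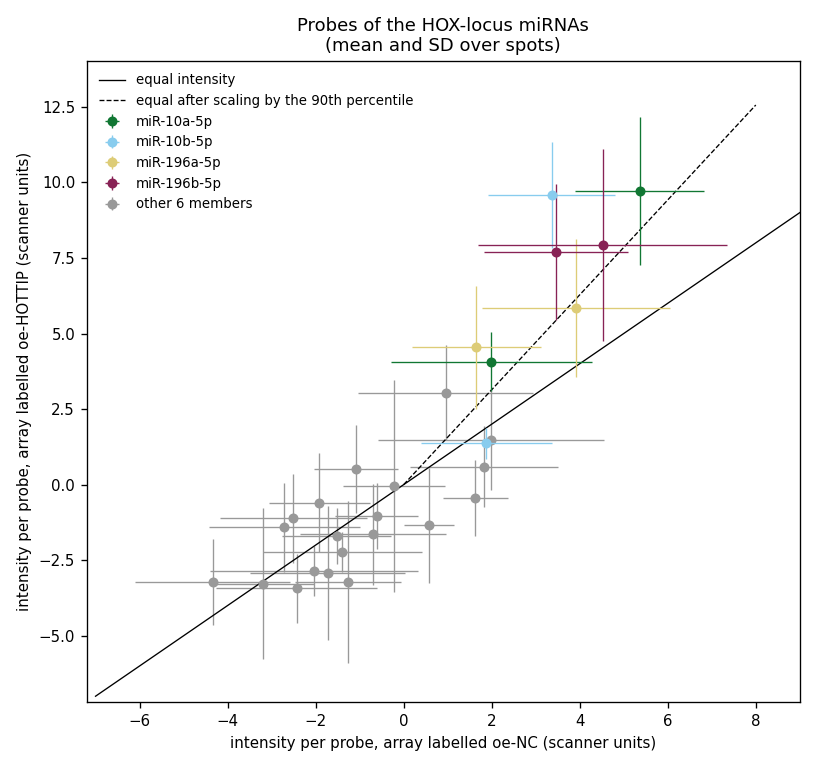
Mean intensity of each of the 28 probes of the HOX-locus miRNAs on the oe-HOTTIP array against the oe-NC array, in scanner units before scaling, with bars for the SD over spots. Most probes of miR-10a-5p, miR-10b-5p, miR-196a-5p and miR-196b-5p lie above the solid line of equal intensity, apart from 1 probe of miR-10b-5p at 1.88 and 1.37, and the dashed line marks equality after scaling. Probes of the other 6 members lie between -4.34 and 3.04.

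None of the 3 members with a bound reached 2-fold toward oe-HOTTIP, the only direction such a bound can take. Of the 457 miRNAs detected on at least 1 array, 33.9% passed 2-fold upward, that is toward oe-HOTTIP, and 25.2% passed it downward. Of the 129 miRNAs with a call from the oe-HOTTIP array alone, 83.7% passed 2-fold, with a median bound of 4.46-fold over the 127 that had one. Where the bound was set by the miRNA's own signal on the other array, as for the 3 members, 72.1% of 68 miRNAs passed. The members thus had 0 of 3 against these shares, which describes these arrays and was not tested. Each of the 3 differences was smaller than its spread over spots. The standard errors from the number of spots were 0.19 for miR-10a-5p, 0.20 for miR-10b-5p and 0.22 for miR-196b-5p on the log2 scale. Spread and error are taken within probes and leave out differences between probes, such as log2 0.86 and -1.11 for those of miR-10b-5p. The direction turned with the background correction. With normexp, a model-based correction of the median spot signals, the scaled signal of the 3 was lower on the oe-HOTTIP array. It was 0.70 to 0.71 times that on the oe-NC array with an offset of 50, and 0.80 to 0.86 times without an offset. The offset is large beside signals this dim, so the ratio with it rests mostly on the offset and the scaling. With it, their scaled signals on the oe-NC array were 0.179 to 0.183, close to the floor of 0.173. From the brightest probe, or against a higher floor, the scaled signal on the oe-HOTTIP array was under the floor, at 0.66 to 0.98 times its value. No bound is given for any of the 3 in these cases.

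The remaining 6 members had no detection call, and their means were below that of the negative control spots on both arrays. miR-10b-3p had 1.47 ± 2.30 (SD over 20 spots) on the oe-NC array and 2.27 ± 1.62 (SD over 19 spots) on the oe-HOTTIP array. One of its probes averaged 3.04 ± 1.57 (SD over 9 spots) on the oe-HOTTIP array, with 6 of 9 spots positive and significant, and 0.95 ± 1.98 (SD over 10 spots) on the oe-NC array. The other averaged 1.49 and 1.98, so the probes differed in direction. miR-615-3p, the arm of miR-615 usually found in cells, had -0.61 ± 1.28 (SD over 20 spots) and -0.68 ± 1.86 (SD over 20 spots). None of its spots reached the mean of the negative control spots on either array. miR-10a-3p, miR-196a-3p, miR-196b-3p and miR-615-5p had means between -2.93 and -0.51 on the oe-NC array and between -2.74 and -1.21 on the oe-HOTTIP array. Negative values arise because the background is subtracted, and they have no fold. Levels of different miRNAs are not compared further, since each probe binds with its own strength.

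The relatives of miR-10 outside the HOX clusters include the 1 miRNA of these families that was well measured. miR-100-5p, known to act on mTOR mRNA, was detected on both arrays, with 23.5 ± 2.49 (SD over 18 spots) on the oe-NC array and 32.4 ± 4.42 (SD over 20 spots) on the oe-HOTTIP array. Of its spots, 17 of 18 and 18 of 20 were well above background. Both probes were brighter on the oe-HOTTIP array before scaling, and both were lower after it. The scaled log2 difference was -0.19, which did not reach 2-fold, and it turned to 0.46 without scaling. Its spread was 0.25 and its standard error 0.057, both from spots within probes. miR-99a-5p, from which miR-100-5p differs by the substitution U16A (counted from the 5′ end of miR-99a-5p), was detected on neither array, with 1.60 ± 1.57 (SD over 20 spots) and 3.20 ± 1.75 (SD over 19 spots). miR-99b-5p was detected on neither array, with -0.83 and -0.23. The rule to name the miRNAs most like a member in pattern could not be applied, since 0 of the 10 members were detected on both arrays.

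**Figure D3:**
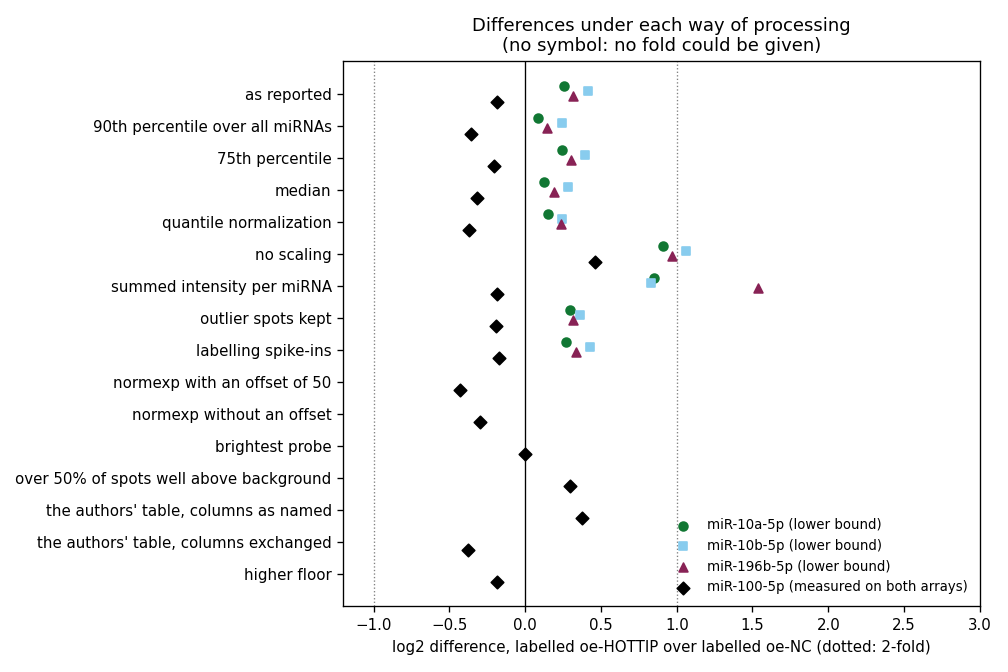
Log2 difference, labelled oe-HOTTIP over labelled oe-NC, for the 3 HOX-locus miRNAs with a bound and for miR-100-5p under each way of processing, one row per setting, with dotted lines at 2-fold. Under scaling by percentiles, quantiles or spike-ins, and with outlier spots kept, the 3 bounds lie between 0.085 and 0.43, they lie between 0.83 and 1.54 without scaling or with the summed intensity, and the other settings give no fold for them.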

How the data were processed

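Exosomal RNA (200 ng per array, per the labels) was hybridized to 1 array per group. The authors deposited scanner output with an intensity per spot, already background-subtracted by Agilent Feature Extraction (11.5.1.1 in the output, 10.10 in the submitters' processing notes), and detection flags from the same software coded 0 or 1. The authors also deposited a table of log2 values, by their methods made with GeneSpring and a 90th percentile normalization, in which undetected values stand at 1e-06 or lower. The methods go on to name a log2 transformation and centring of each gene on its median for clustering. Centring over both arrays gives opposite signs, whereas miR-100-5p stands at 2.79 and 3.17, so the deposited table was not centred in this way. Its columns follow the opposite arrays.

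Control spots were dropped, as were outlier-marked spots (3.2% and 3.16%), and means were taken per probe and then per miRNA before scaling by the 90th percentile of miRNAs called on both arrays. Spot SDs, pooled within probes, are technical error. The methods' 2-fold served as threshold. With 1 array per group no test was run. All members, the relatives of miR-10 and the marker lists were named by rule, and these choices were made with earlier results of these data known. Bounds and 2-fold calls were tested on simulated data, where a few unchanged miRNAs passed 2-fold when many others were made to change. The simulated miRNAs were brighter than any member, and their detection was set in advance. It therefore says nothing of bounds or detection for signals as dim as those of the members. Alternatives covered scaling, background correction, outliers, probes, detection and the table. Normexp was run with limma 3.58.1 in R 4.3.3, and all else with pandas 2.3.3 and numpy 2.4.6 in Python 3.11.15.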

Additional observations from a re-analysis of the deposited data

Results flagged for a closer look

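Among the member spots left out as outliers, 4 exceeded the mean of the negative control spots of their array by over 2 SD. The values of the report leave them out, and the alternatives that keep outlier spots use them. On the oe-NC array one spot of miR-196a-5p read 16287, and close to it on the slide a spot of miR-370-5p read 28871, while no further neighbour of the 12 exceeded 15.6. Another spot of miR-196a-5p read 236.5, with no neighbour above 7.22. One spot of miR-615-5p read 100.4, with a brightest neighbour of 23.4. On the oe-HOTTIP array a spot of miR-10a-5p read 8.25, against a limit of 7.87. With outliers kept, the mean of miR-196a-5p on the oe-NC array was 828.7 in place of 2.79, and that of miR-615-5p 2.56 in place of -2.59. What made these spots bright was not tested.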

How the results depend on the processing

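No paired analysis was possible because neither group holds more than 1 array, and none could be left out. On the oe-HOTTIP array the 3 detected members became 0 under each other rule for detection on the scanner values. These rules were over 50% of spots well above background, or a mean over that of the negative controls by 2 SD, each also with outlier spots kept. How many of all miRNAs pass them was not counted, so the loss cannot be called particular to the members. On the oe-NC array the count of 0 became 1 (miR-196a-5p) by the negative controls with outlier spots kept. The authors' table has 3 members above its floor in the column named for oe-NC and 0 in that named for oe-HOTTIP. Since the columns follow the opposite arrays, by array the 3 belong to oe-HOTTIP and the 0 to oe-NC, as in the scanner calls. With outlier spots kept, 2 members in place of 1 were above the mean of the negative control spots on that array. The count of members past 2-fold toward oe-HOTTIP was 1 without scaling (miR-10b-5p) and 1 with the summed intensity (miR-196b-5p, a log2 bound of 1.54). It was 0 under the other 13 alternatives, of which 7 gave no bound for any member. The share of all miRNAs past 2-fold was not counted for the alternatives. No member was at least 2-fold lower under any of the 15, but none had a value from both arrays, and the bounds could only be higher. Bounds were given by 8 alternatives, and only where the ratio was at least 1, so their direction carries no information. On the log2 scale they ran from 0.085 to 0.91 for miR-10a-5p, 0.24 to 1.06 for miR-10b-5p and 0.15 to 1.54 for miR-196b-5p. The other 7 alternatives gave none, and with normexp the scaled signals of all 3 were lower on the oe-HOTTIP array. The difference of miR-100-5p turned to 0.46 without scaling and to 0.30 with detection by over 50% of spots well above background. In the authors' table it was 0.37 as named and -0.37 with the columns exchanged to match the arrays they follow. Scaling by spike-ins, normexp without an offset, the higher floor and the table with its columns exchanged were chosen after seeing the data. The spike-in divisor averaged dmr_285 and dmr_31a, whose log2 differences, oe-HOTTIP over oe-NC, were 0.80 and 0.47. Neither was used alone. normexp used median spot signals. Member signals close to those of the negative control spots limit these values.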

Other observations

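In the authors' table, miR-10a-5p was listed at 0.23, miR-10b-5p at 0.22 and miR-196b-5p at 0.58 on its log2 scale in the column named for oe-NC, while the oe-HOTTIP column lists all 3 at the floor. The other 7 members were at the floor in both columns. As its columns are named, the table thus has these 3 members in control exosomes and not in those of the HOTTIP-overexpressed cells, the reverse of the scanner output by array title.

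Of the 28 probes of the members, 14 were brighter and 14 dimmer on the oe-HOTTIP array before scaling.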
